A study of Mus musculus with 8 samples.

Results

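The 9 genes described here carry, switch off or report the retinoic acid signal: the receptor genes *Rara*, *Rarb* and *Rarg*, the hydroxylase genes *Cyp26a1* and *Cyp26b1*, the retinaldehyde reductase gene *Dhrs3*, the retinol transporter gene *Stra6*, and the binding protein genes *Crabp1* and *Crabp2*. They were chosen by symbol as known receptors, binding proteins and retinoic acid-induced genes, and all 9 are among the 16658 genes tested of 27179 genes counted. RNA-seq was performed on whole uteri of mice at postnatal day 10 (PD10), with 4 libraries of *Ezh2* f/f controls and 4 libraries of *Ezh2* f/f; Acre mice, named *Ezh2 Amhr2*-Cre cKO below. Mice of both genotypes carried the floxed allele of *Ezh2*, which encodes the H3K27 methyltransferase of polycomb repressive complex 2, and only cKO mice carried Cre expressed from *Amhr2*. This Cre is active in the mesenchyme of the uterus and not in its epithelium, so that epithelial cells of cKO uteri keep *Ezh2*. The mice were of a mixed C57BL/6/129SvEv background. Levels are given as CPM, the counts of a gene per 1e+06 counts of its library after TMM scaling. Counted over the whole gene and all cell types, *Ezh2* averaged 45.0 ± 8.71 CPM over the controls and 36.8 ± 4.41 CPM over the cKO libraries (SD, n = 4 each), and the genotypes overlapped (edgeR adjusted p = 0.247). In whole tissue, fewer cells of a type and less RNA per cell cannot be told apart.

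Retinol enters cells in part through STRA6 and is oxidized to retinaldehyde and then to retinoic acid. Retinoic acid is handed to nuclear receptors by CRABP2, is bound in the cytoplasm by CRABP1, and is broken down by the CYP26 hydroxylases. The receptors RARA, RARB and RARG pair with retinoid X receptors on response elements, which are direct repeats of a short half-site. *Rarb*, *Cyp26a1*, *Cyp26b1*, *Dhrs3*, *Stra6* and *Crabp2* are known as genes that retinoic acid induces in many tissues, so that several of them form negative feedback on the signal. In the uterus, retinoic acid acts on stromal differentiation and keeps the epithelium from becoming squamous.

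The genes that passed the test were not all on one side. *Crabp1* was higher, and *Stra6* and *Cyp26a1* were lower in cKO uteri, while the other 6 genes, including all 3 receptor genes, did not pass the test. Thus 1 of 9 genes was called higher (adjusted p under 0.05 in edgeR's quasi-likelihood test), beside 2.62% of all genes tested, and 2 of 9 were called lower, beside 2.71%. In either direction 3 of 9 were called, beside 5.34%. These 3 genes also changed more than 2-fold and are differentially expressed (DE), as were 1.30% of all genes (0.666% higher and 0.636% lower). The median log2 fold change was 0.14 over the 9 genes and 0.00044 over all genes tested. Leaving out 1 library moved that of the 9 genes from 0.073 (without cKO replicate 3) to 0.20 (without cKO replicate 4). The median of the 9 genes was -0.022 with cKO replicates 1 to 3 left out and -0.019 with a fat marker score as a covariate, with 4 genes above and 5 below 0 in both fits, against 7 and 2 with all libraries. The libraries of the genotypes did not overlap in the same 3 genes, against 12.3% of all genes (5.90% higher and 6.43% lower).

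The promoters of *Rarb* and *Cyp26a1* are shown because they alone, among the genes with a promoter in the RefSeq table used (GRCm38.p6), hold a paired half-site, and because *Cyp26a1* was called lower whereas *Rarb* was not called. Promoters were 300 bases long, from 250 before to 50 after a start, and the table held 17 of them for 8 of the 9 genes, all but *Crabp2*. Searched on both strands were the half-sites AGGTCA or AGTTCA or GGGTCA or GGTTCA, alone or as direct repeats with 1, 2 or 5 bases between them (DR1, DR2 and DR5). The 120 bases before each start follow, read along the strand of the gene, with the half-sites of the DR5 in capitals (*Rarb* at chr14:16575477-16575596, minus strand, and *Cyp26a1* at chr19:37697688-37697807, plus strand).
Rarb: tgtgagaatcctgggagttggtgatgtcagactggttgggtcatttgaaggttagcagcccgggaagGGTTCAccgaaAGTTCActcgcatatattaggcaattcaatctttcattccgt
Cyp26a1: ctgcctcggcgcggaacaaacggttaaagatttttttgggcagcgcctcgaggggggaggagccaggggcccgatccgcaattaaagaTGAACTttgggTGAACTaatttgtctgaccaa

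The repeat of *Rarb* lies 53 to 37 bases before its start on the strand of the gene, and that of *Cyp26a1* lies 32 to 16 bases before its start on the opposite strand. These starts, at 16575476 for *Rarb* and 37697808 for *Cyp26a1*, are the ones of the promoter table and lie inside the gene intervals given below, which reach further upstream. Read each from its own strand, they are alike in 15 of 17 bases.
Rarb DR5: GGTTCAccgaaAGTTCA
Cyp26a1 DR5: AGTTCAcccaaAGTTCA
A DR5 of these half-sites was found in 32 of 32851 promoters (0.0974%), and a single half-site in 43.7%. DR1 and DR2 were found in 0.222% and 0.268% of promoters and in none of the genes described here. Single half-sites without a repeat were found in promoters of *Rara*, *Rarg* and *Stra6*, and none was found for *Crabp1*, *Cyp26b1* or *Dhrs3*. The DR5 promoters belong to 31 genes, of which 8 were tested. Of these, *Syndig1* was called higher and *Prokr2* and *Cyp26a1* were called lower, with *Syndig1* and *Prokr2* named after their values were seen. A match is a description of letters and was not tested for binding.

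*Cyp26a1* (chromosome 19, from 37697738 to 37701536) encodes the hydroxylase that clears retinoic acid most efficiently and is among its most sensitive target genes. The control libraries held 57, 49, 57 and 50 counts of it, or 1.80, 1.89, 2.03 and 1.37 CPM. The cKO libraries held 5, 6, 20 and 13 counts, or 0.194, 0.201, 0.616 and 0.455 CPM. Every cKO library was therefore below every control library (exact permutation test, two-sided p = 0.0286, the smallest that 4 against 4 allow). *Cyp26a1* was 4.69-fold lower in cKO uteri, with a log2 fold change of -2.23 (SE 0.33, edgeR adjusted p = 0.00179). Leaving out any single library kept the call, with log2 fold changes from -2.62 to -2.02. With cKO replicates 1 to 3 left out the log2 fold change was -1.94. With a fat marker score as a covariate it was also -1.94, and the call was lost (edgeR adjusted p = 0.147). *Cyp26b1* (chromosome 6, from 84571414 to 84593908), the hydroxylase of many mesenchymal tissues, was at 8.17, 9.17, 4.74 and 5.30 CPM in control and at 7.03, 8.30, 9.33 and 5.50 CPM in cKO uteri. Its libraries overlapped, and its log2 fold change of 0.15 has a 95% interval from -0.35 to 0.64, which leaves out a change as large as that of *Cyp26a1*. Single libraries moved it from 0.0079 (without control replicate 3) to 0.31 (without control replicate 2). Its direction reversed, to -0.30 with cKO replicates 1 to 3 left out and to -0.28 with a fat marker score as a covariate.

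Per kilobase of exon, *Cyp26a1* made up 42.0% ± 8.10 of the CPM of both hydroxylase genes in control and 11.6% ± 6.01 in cKO uteri (SD, n = 4 each). The shares ranged from 35.8% to 53.6% in control libraries and from 6.13% to 18.3% in cKO libraries. The summed level of both genes was 2.17 ± 0.456 CPM per kilobase in control and 1.59 ± 0.348 in cKO uteri (SD, n = 4 each), with overlapping libraries.

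*Stra6* (chromosome 9, from 58063793 to 58154004) encodes the receptor that takes up retinol from its plasma carrier. It was at 87.2, 75.7, 101.7 and 98.1 CPM in control libraries. In cKO libraries it was at 41.6, 31.9, 41.7 and 35.5 CPM, each below the lowest control. *Stra6* was 2.41-fold lower, with a log2 fold change of -1.27 (SE 0.11, edgeR adjusted p = 7.03e-05). Leaving out any single library gave log2 fold changes between -1.35 and -1.19 and kept the call. The gene overlaps *Ccdc33* on the other strand and *Gm16131* on its own. Libraries were made with a stranded mRNA kit, but the strand setting of the counting is not given in the sources used here, so reads of the pair cannot be told apart.

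*Crabp1* (chromosome 9, from 54764748 to 54773110) encodes a cytoplasmic protein that binds retinoic acid. It was at 24.8, 20.3, 41.6 and 48.0 CPM in control libraries. In cKO libraries it was at 87.7, 76.0, 100.8 and 82.5 CPM, each above the highest control. The control libraries spread more widely for this gene, with an SD of 13.2 around a mean of 33.7 CPM. *Crabp1* was 2.57-fold higher, with a log2 fold change of 1.36 (SE 0.27, edgeR adjusted p = 0.0331). The call was lost without control replicate 1 (edgeR adjusted p = 0.0882) or 3 (0.0532) or cKO replicate 1 (0.0831), 2 (0.0801) or 3 (0.0903), while the log2 fold change stayed between 1.18 and 1.58.

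*Crabp2* (chromosome 3, from 87948693 to 87953372) encodes the related protein that delivers retinoic acid to its receptors in the nucleus. It was at 20.4, 15.1, 31.9 and 29.6 CPM in control and at 28.3, 27.3, 37.3 and 39.4 CPM in cKO uteri, so that the libraries overlapped. Its log2 fold change of 0.45 did not pass the test (SE 0.24, edgeR adjusted p = 0.319), with a 95% interval from -0.09 to 0.99. It was 0.28 without control replicate 2 and 0.76 with a fat marker score as a covariate, without a call in either. With cKO replicates 1 to 3 left out it was 0.70. With replicate number added to the fit as a block it was 0.48 and was called (edgeR adjusted p = 0.00807). Whether these numbers pair the libraries is not known. Control replicates 3 and 4 held more of both binding protein genes than control replicates 1 and 2. Per kilobase, *Crabp1* made up 69.2% ± 2.57 of the CPM of both genes in control and 81.2% ± 2.60 in cKO uteri (SD, n = 4 each). The shares ran from 66.7% to 72.8% in control and from 77.6% to 83.6% in cKO libraries, without overlap.

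**Figure D1:**
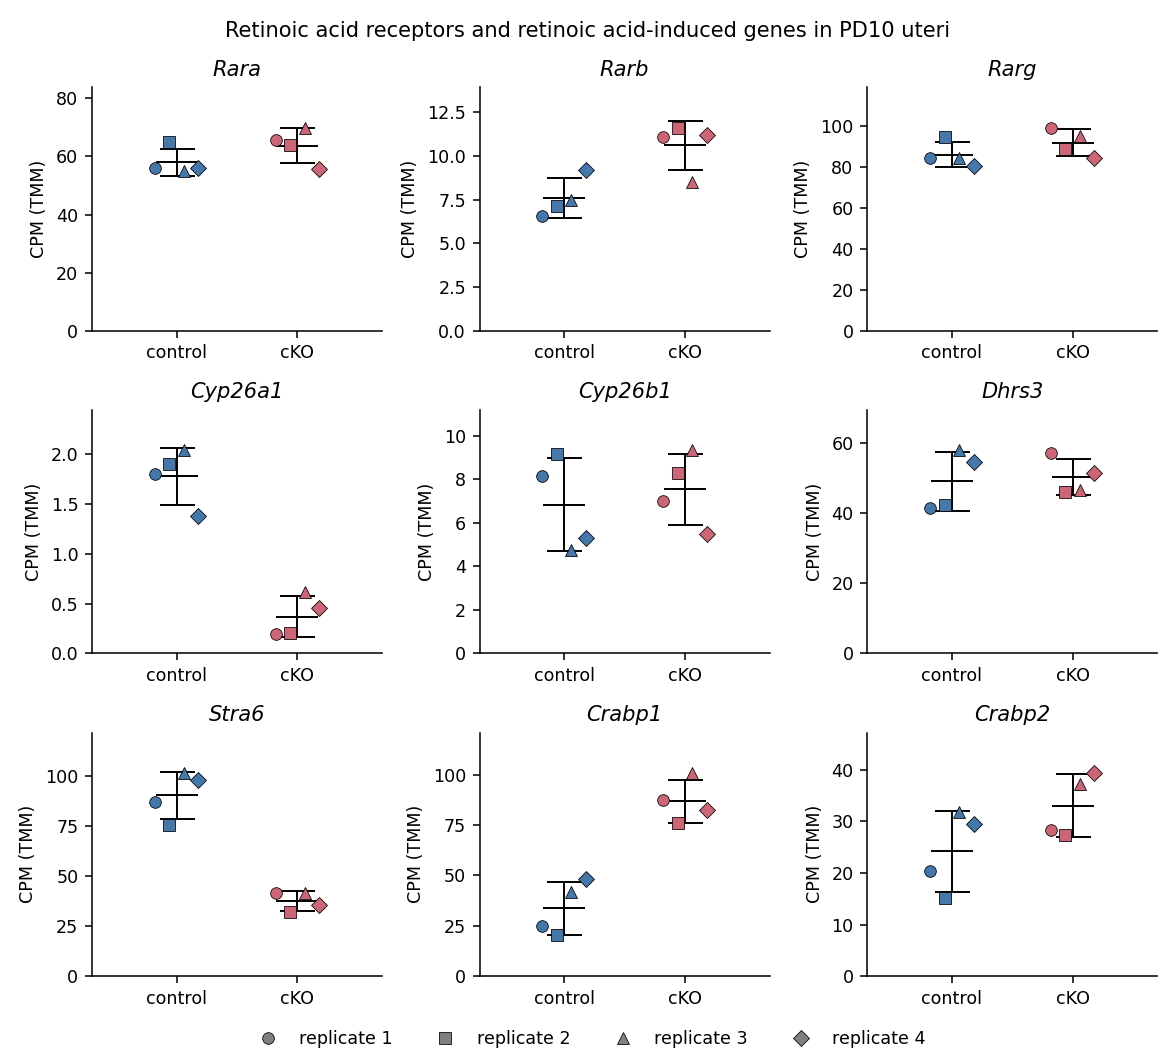
Level of each gene in every library. The vertical axes give TMM-scaled CPM from 0, points are libraries with a symbol for each replicate number, and bars are the mean and SD of 4 libraries. The genotypes are apart in *Cyp26a1*, *Stra6* and *Crabp1* and overlap in the other 6 genes.

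Of the receptor genes, *Rarb* (chromosome 14, from 16430839 to 17082331), which retinoic acid itself induces, came closest to the threshold. It was at 6.56, 7.16, 7.49 and 9.20 CPM in control and at 11.1, 11.6, 8.53 and 11.2 CPM in cKO libraries. The genotypes overlapped only because cKO replicate 3 was below control replicate 4 (exact permutation test, two-sided p = 0.0571). Its log2 fold change was 0.48 (SE 0.13, edgeR adjusted p = 0.0589). Without control replicate 4 the adjusted p-value was 0.0305, and without cKO replicate 3 it was 0.0347. It was also under 0.05 with DESeq2 (0.0158), with upper quartile factors in edgeR (0.0497) and with no filter on low counts in edgeR (0.0492), and reached 0.177 without control replicate 1. *Rarb* overlaps *Top2b* on the other strand, with the same limit as for *Stra6*.

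*Rara* (chromosome 11, from 98927800 to 98974942) and *Rarg* (chromosome 15, from 102234938 to 102257522) encode the other two receptors. *Rara* overlaps the small nuclear RNA gene *Gm22061* on the same strand. *Rara* was at 56.0, 64.9, 54.9 and 56.1 CPM in control and at 65.6, 64.0, 69.8 and 55.6 CPM in cKO libraries. *Rarg* was at 84.2, 94.7, 84.4 and 80.6 CPM in control and at 99.1, 88.8, 95.0 and 84.2 CPM in cKO libraries. Both overlapped between genotypes, with 95% intervals of the log2 fold change from -0.03 to 0.31 for *Rara* and from -0.05 to 0.24 for *Rarg*. Per kilobase, *Rarg* made up 57.8% ± 0.970 of the CPM of the 3 receptor genes in control and 56.4% ± 1.07 in cKO uteri (SD, n = 4 each). *Rara* made up 38.0% and 38.2%, and *Rarb* 4.16% and 5.32%. The summed level was 34.9 ± 2.38 CPM per kilobase in control and 38.2 ± 2.63 in cKO uteri, with overlapping libraries.

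*Dhrs3* (chromosome 4, from 144892534 to 144928209) encodes a reductase that turns retinaldehyde back into retinol and so limits retinoic acid. It was at 41.4, 42.4, 57.9 and 54.7 CPM in control and at 57.2, 46.0, 46.8 and 51.5 CPM in cKO libraries. The libraries overlapped. Its log2 fold change of 0.035 has a 95% interval from -0.22 to 0.29 and was below 0 without control replicate 1, control replicate 2 or cKO replicate 1, at -0.040 in the lowest of these.

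**Figure D2:**
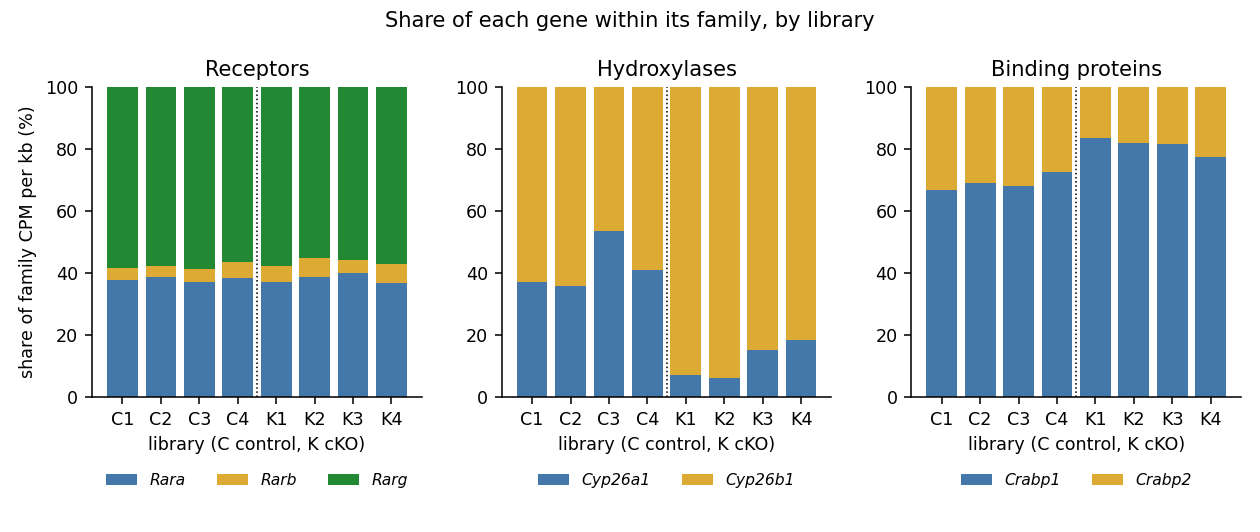
Share of each gene in the CPM per kilobase of its family, as stacked bars from 0 to 100% for 4 control (C1 to C4) and 4 cKO libraries (K1 to K4). The *Rarg* share is between 55.3% and 58.6% in all 8 libraries, whereas the *Cyp26a1* share is between 6.13% and 18.3% and the *Crabp1* share between 77.6% and 83.6% in cKO libraries.

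In control uteri the genes lay in 3 tiers of CPM per kilobase. *Crabp1* was at 42.0 ± 16.5, followed by *Rarg* (20.2 ± 1.43), *Crabp2* (18.3 ± 5.94), *Dhrs3* (16.8 ± 2.88), *Stra6* (15.6 ± 2.01) and *Rara* (13.3 ± 1.07), and then by *Rarb* (1.44 ± 0.215), *Cyp26b1* (1.28 ± 0.403) and *Cyp26a1* (0.895 ± 0.144; SD, n = 4 each). From *Rarg* to *Stra6*, and from *Rarb* to *Cyp26a1*, neighbours differed by less than the larger of their SDs. In cKO uteri *Crabp1* was at 108.2 ± 13.1 and *Stra6* at 6.46 ± 0.828 CPM per kilobase, so that *Stra6* came after *Rara* (14.6 ± 1.37) and before *Rarb* (2.01 ± 0.266).

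**Figure D3:**
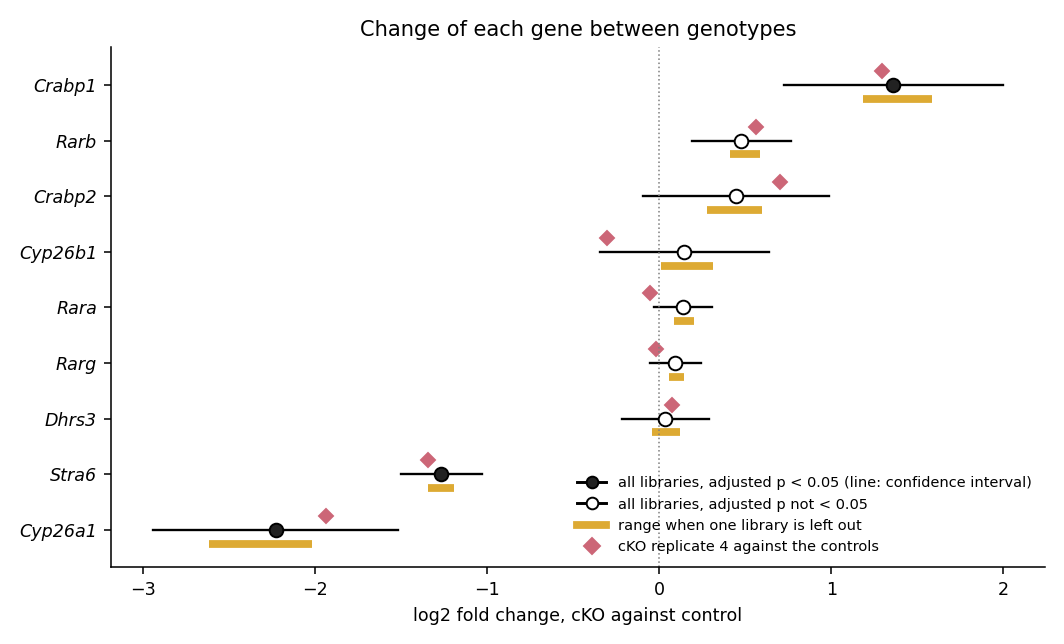
Log2 fold change of each gene, cKO against control. Circles with lines are the fit of all 8 libraries with its 95% interval, filled where the adjusted p-value is under 0.05, yellow bars the range when one library is left out, and red diamonds cKO replicate 4 against the 4 controls. *Crabp1*, *Stra6*, *Cyp26a1* and *Rarb*, which was not called, lie away from 0 in each of these, while *Crabp2*, *Cyp26b1*, *Rara*, *Rarg* and *Dhrs3* have intervals that span 0.

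Libraries with RNA of another cell type stood apart among the cKO mice. The summed level of 7 fat marker genes was 2.00 to 4.10 CPM in control libraries, 4.03 CPM in cKO replicate 4 and up to 205.7 CPM in the other cKO libraries, where *Adipoq* reached 11.7, 23.7 and 14.4 CPM against 0.035 CPM in cKO replicate 4. For *Fabp4*, controls ranged from 0.659 to 1.43 CPM, cKO replicate 4 had 1.61 CPM, and the remaining cKO libraries had 39.0, 106.7 and 45.3 CPM. Of the 6 fat markers tested, *Adrb3* alone was called higher. None of the 7 was without any count in all libraries of a genotype, although *Lep* was at 3 counts or fewer in every control. In cKO replicate 4 the levels of *Cyp26a1*, *Stra6*, *Crabp1*, *Rarb* and *Crabp2* were outside the range of the controls, on the same side as the cKO mean. Replicate 4 is itself part of that mean. A lone library often falls outside the range of 4 others without any change, and the share over all genes is not given here. When cKO replicate 4 was compared alone with the controls, the log2 fold change was -1.35 for *Stra6* (edgeR adjusted p = 0.0419), -1.94 for *Cyp26a1* (0.153) and 1.29 for *Crabp1* (0.732), a fit in which 11 genes were called higher and 24 lower. With 1 cKO library, its spread came from the 4 controls alone, and the lone library is assumed to vary as they do. With the fat marker score as a covariate it was -1.26 for *Stra6* (edgeR adjusted p = 0.0195), -1.94 for *Cyp26a1* (0.147) and 1.42 for *Crabp1* (0.339).

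Markers of uterine glands also moved with genotype. Of 7 gland markers 3 were tested, and *Foxa2*, *Cxcl15* and *Sox9* were all called lower. The summed level of the list was 12.7 to 15.5 CPM in control and 4.68 to 6.06 CPM in cKO libraries, and 3 of the 7 were at 0 in all control libraries and 4 in all cKO libraries. Of 10 epithelium markers none was called, and their sum was 1353 to 1594 CPM in control and 1494 to 1850 CPM in cKO libraries. Of 8 stroma markers *Hoxa11* was called lower and *Col3a1* higher, and of 4 skeletal muscle markers tested *Tnnt3* was called higher. None was called among the markers of smooth muscle, mesothelium, endothelium, macrophages, ovary, oviduct, stratified epithelium and urothelium. The part of these gland marker levels in the results for the 9 genes was not tested.

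The other genes of the pathway were read from lists written from general knowledge. None of the 12 nuclear partners and cofactors tested was called, and their log2 fold changes had a median of -0.03, which turned to 0.014 without control replicate 2 and to 0.0062 without cKO replicate 2. *Rxra* and *Rxrb*, the retinoid X receptors that pair with RARs, had log2 fold changes of 0.07 and 0.01. *Rxrg*, the third of them and the one gene of the list past 2-fold, had a log2 fold change of 1.17 (SE 0.54, edgeR adjusted p = 0.239), with 1 to 22 counts in a library and overlapping genotypes. It was named after its values were seen. The gene of that list with the smallest p-value, *Fabp5*, which encodes a carrier of retinoic acid to another receptor, had a log2 fold change of 0.40 (edgeR adjusted p = 0.205).

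Among 10 genes of retinol transport and storage tested, 1 was called higher and 1 lower, beside 2.62% and 2.71% of all genes tested. The lower one was *Stra6l*, a relative of *Stra6* whose product also takes up retinol, at 1.89, 1.51, 1.43 and 1.10 CPM in control and 0.466, 0.602, 0.339 and 0.525 CPM in cKO libraries. Its log2 fold change was -1.61 (SE 0.27, edgeR adjusted p = 0.00391), so that both genes of the family were lower without overlap of the libraries. *Ces1d*, which encodes a lipid esterase, had a log2 fold change of 0.65 (SE 0.12, edgeR adjusted p = 0.00592). The median over the 10 genes was 0.03, and it ran from -0.077 without control replicate 1 to 0.22 without control replicate 2.

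Of 17 retinoic acid production genes tested, 5 were called lower, beside 2.71% of all genes tested, and 1 higher, beside 2.62%. Their median log2 fold change was -0.10. The 5 include *Rdh10*, the main retinol dehydrogenase of the embryo, at 53.3, 48.3, 60.9 and 56.9 CPM in control and 32.3, 29.8, 36.6 and 40.6 CPM in cKO libraries. Its log2 fold change was -0.66 (SE 0.10, edgeR adjusted p = 0.00231), under the 2-fold threshold. With cKO replicates 1 to 3 left out it was -0.43 (edgeR adjusted p = 0.403), and with the fat marker score as a covariate -0.41 (0.188). The others were *Rdh1*, *Rdh9*, *Aldh1a1* and *Aldh1a3*, with log2 fold changes from -1.99 to -1.33, and *Dhrs9* was the one called higher (1.74). *Aldh1a1* moved from -1.33 to -0.75 and -0.80 in the same fits and was not called in them. *Rdh1* and *Rdh9* are related genes close to each other, so that their values are uncertain where reads fit both. *Aldh1a2*, the retinaldehyde dehydrogenase of stroma, had a log2 fold change of -0.22 (edgeR adjusted p = 0.112).

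Of 29 further retinoic acid-induced genes 22 were tested. The list had 7 genes called higher, beside 2.62% of all genes tested, and 1 lower, beside 2.71%. Its median log2 fold change was 0.36. With the 3 other scalings of the libraries the median was between 0.36 and 0.37. It was 0.22 with cKO replicates 1 to 3 left out, with 21 genes tested, and 0.23 with the fat marker score as a covariate. The genes called higher were *Hoxa2* (log2 fold change 1.60), *Hoxa5* (1.53), *Nr2f1* (1.38), *Hoxa3* (1.34), *Hoxb3* (0.43), *Zfp703* (0.38) and *Meis1* (0.26), with standard errors from 0.05 to 0.25. These are transcription factor genes, and the Hox genes and *Nr2f1* are also known targets of polycomb repression in embryonic cells. *Tgm2*, which encodes a transglutaminase, was the gene called lower (log2 fold change -0.41, standard error 0.08). It was at 399, 418, 338 and 351 CPM in control and 290.5, 294, 258 and 288 CPM in cKO libraries. *Cyp26c1*, the third hydroxylase gene, was under the filter, with at most 11 counts in a library. In the 4 lists, with 12, 10, 17 and 22 genes tested, 16 genes were called, beside 5.34% of all genes tested. With the fat marker score as a covariate 2 were called. Calls over all genes then fell from 437 higher and 452 lower to 42 and 74. In cKO replicate 4 all 16 were outside the range of the controls. All 16 kept their direction with cKO replicates 1 to 3 left out and with the fat marker score as a covariate. They were picked by a fit that holds the same libraries, so this was partly fixed in advance. The share over all genes is not given here. Sizes moved unevenly in the fits without cKO replicates 1 to 3 and with the fat marker score. *Stra6l* (-1.48, then -1.61), *Rdh1* (-2.20, then -2.27) and *Hoxa2* (1.41, then 1.33) moved little. Others were smaller than with all libraries, such as *Nr2f1* (1.11, then 1.05), *Ces1d* (0.49, then 0.44) and *Aldh1a3* (-1.29, then -1.25). *Hoxa5* moved to 0.96 and 0.97, and *Zfp703* to 0.23 and 0.27.

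Of the 4 genes that the study names as downstream targets of retinoic acid, *Hoxa5* alone was called here. The study cites a source for each of the 4 targets but does not say how they were chosen. They are therefore not taken as independent evidence of a direction. The study reports these targets as upregulated in cKO uteri by qRT-PCR, another assay than the RNA-seq tested here. By that assay it also reports *Crabp2* and *Rxrg* as upregulated. The lack of a call here concerns the RNA-seq alone, and the qRT-PCR values were not analysed. The log2 fold changes of *Aqp5* (1.09), *Upk1a* (1.09) and *Krt15* (1.05) had adjusted p-values of 0.111, 0.0706 and 0.126 in edgeR, although their libraries did not overlap.

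**Figure D4:**
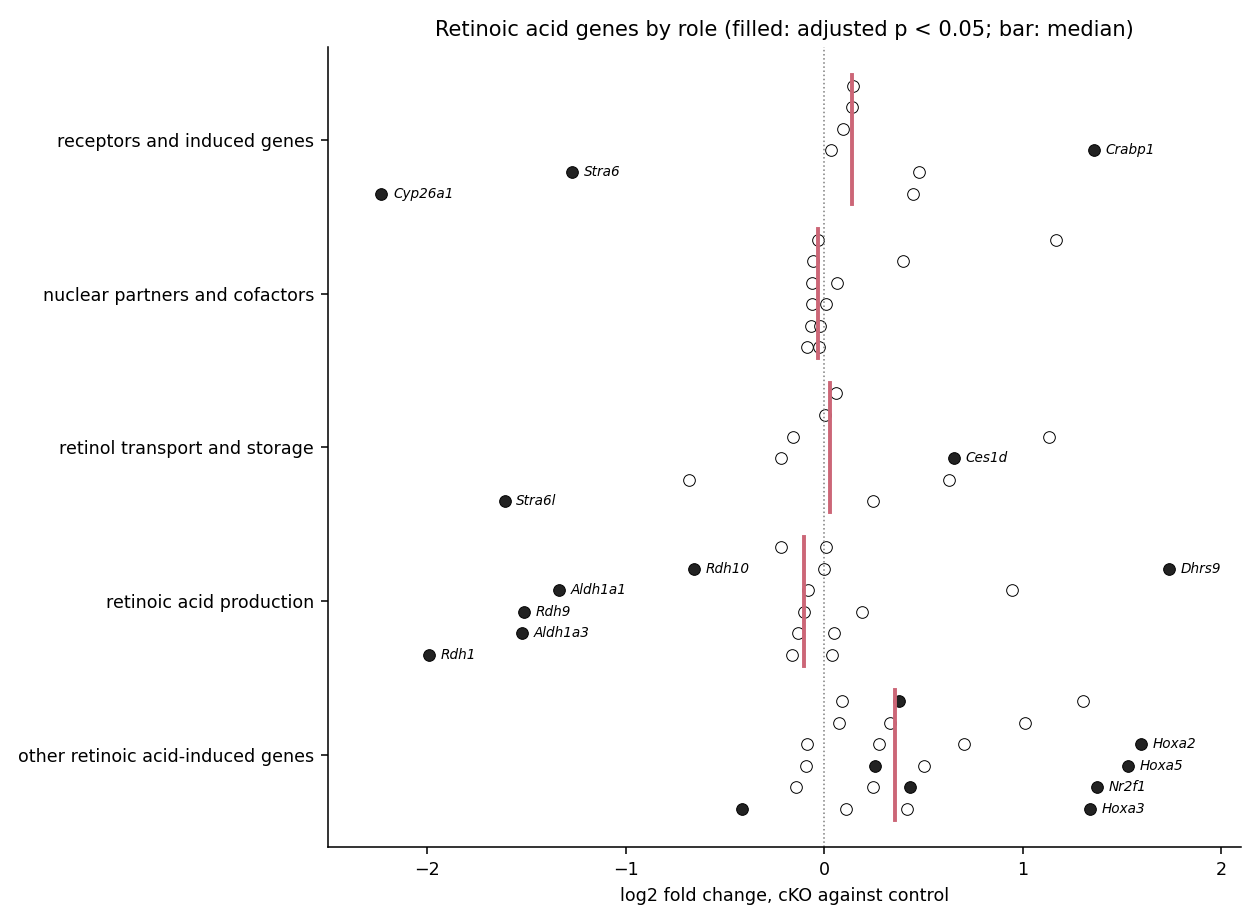
Log2 fold change of the 9 genes and of the genes tested in 4 further lists. Each circle is a gene, filled where its adjusted p-value is under 0.05, and red bars are the medians. The nuclear partners and cofactors hold no call and the other lists hold calls on both sides of 0, with 5 of 6 calls lower in retinoic acid production and 7 of 8 higher in the further induced genes.

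Genes with the most similar pattern over the 8 libraries were sought for the 3 called genes, as the root-mean-square difference of centred log2 levels among 14297 genes. For *Cyp26a1* they were *Gstm7* (0.34) and *Smim41* (0.37). For *Stra6* they were *Fam189a1* (0.15) and *Bhmt2* (0.21). For *Crabp1* they were *Upk1a* (0.23) and *G6pc2* (0.24).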

How the data were processed

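Per the labels and the methods of the study, reads of stranded mRNA libraries from 8 uteri were trimmed with Trimmomatic, aligned to GRCm38 with HISAT2 and counted with featureCounts by the authors, who deposited raw counts per Entrez gene. Annotation release, strand setting and treatment of multi-mapping reads are not given in the sources used here. The authors' edgeR table was used for symbols only, and neither its fold changes and p-values nor the normalized table was used.

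The test was limited to genes above 0.2 CPM in 4 or more libraries and used edgeR 4.0.16 (R 4.3.3) with TMM, glmQLFit with robust = TRUE and glmQLFTest, with Benjamini-Hochberg adjustment over all genes. DE means an adjusted p-value under 0.05 and over 2-fold. The standard error is the size of the log2 fold change divided by the square root of F, and intervals of 95% use the fit's degrees of freedom. Exact permutation tests used log2(CPM + 0.1) and 70 arrangements. Levels per kilobase used the merged exons of the GENCODE annotation of GRCm38, and gene coordinates came from RefSeq. Alternatives also used limma 3.58.1 and DESeq2 1.42.0. The script was tested on simulated data. Depth was 25287141 to 36685807 counts per library, so that 3 counts, the limit for a gene at 0, are 0.0824 to 0.117 CPM, a limit for counting error alone. Each of 28 pairs of libraries differed by more than sampling would give (chi-square per gene 7.49 to 30.5). The study's methods give n = 4 uteri per genotype, and the labels do not say whether each library is a separate mouse. How far p-values measure spread between mice is therefore not known. Named were the 9 genes, *Ezh2*, called genes of the 4 pathway lists or else the one with the smallest p-value, the study's 4 targets, *Adipoq*, *Fabp4*, and the 2 most similar genes with a mean of at least 1 CPM. Genes named beyond this rule were chosen after their values were seen. Members and lists were chosen with earlier results of these data known. Proteins were not analysed here.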

Additional observations from a re-analysis of the deposited data

Results flagged for a closer look

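Among the 9 genes and *Ezh2*, 20 groups of 4 libraries were searched for a library far from the others, and chance flags about 1 in 20. The one found was *Rara* in control replicate 2, at 64.9 CPM, where the other controls were at 54.9 to 56.1 CPM. Its gap took 0.882 of the range of the group, above Dixon's critical value for 4 samples. Without this library the log2 fold change of *Rara* was 0.20 (edgeR adjusted p = 0.141).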

How the results depend on the processing

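Of 171 values of the 9 genes over 19 alternatives, 162 kept their direction and 145 kept both direction and side of the threshold. *Stra6* kept both in each of the 19, of which the one with a lone cKO library takes its spread from the controls alone. Genes called higher numbered 1, and 2 with upper quartile factors or with DESeq2, 3 with the replicate block, 0 with cKO replicates 1 to 3 left out or with the fat score, and 0 to 2 without one library. Genes called lower numbered 2, and 1 with cKO replicates 1 to 3 left out or with the fat score, and DE genes numbered 3, 1 in the same fits, 2 with no filter on low counts and 2 to 3 without one library. *Rarb* was the gene gained with upper quartile factors and DESeq2, and with no filter it was called in place of *Crabp1*. Other retinoic acid genes called numbered 16, then 1 and 2. Over all genes these fits called 11 higher and 24 lower, and 42 and 74, against 437 and 452, with fewer libraries or a covariate that moves with genotype. DESeq2 called 797 and 713, the replicate block 669 and 571, and the fits without one library from 176 and 233 (without control replicate 1) to 1031 and 781 (without cKO replicate 4). The directions of *Rara* (-0.052, then -0.041), *Rarg* (-0.022, then -0.019) and *Cyp26b1* (-0.30, then -0.28) reversed in them, and *Dhrs3* ranged from -0.040 to 0.12 without one library; the cause was not tested. The call of *Crabp1* was also lost with no filter on low counts (adjusted p = 0.0658 by edgeR). The correlations of same-numbered deviations were 0.0663, 0.156, -0.0418 and 0.263. These are too few and too weak to decide whether the replicate numbers pair the libraries, and the labels do not say. With the replicate block *Rarb* (adjusted p = 0.0340) and *Crabp2* (0.00807) were called too. A pseudocount of 1 changed no exact p. At 5 to 57 counts, the size of the *Cyp26a1* change is less precise than that of *Stra6*.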
